A study of Mus musculus with 60 samples.

Results

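A set of 9 mouse genes that mark fat cells or bring nutrients into them, of 54232 gene IDs counted, was followed through 3 tissues. They were picked by symbol from the count table: Pparg, Cebpa, Lpl, Cd36, Fabp4, Slc2a4, Akt2, Gpd1 and Aqp7. RNA was sequenced from the liver and from subcutaneous and visceral fat after 12 weeks on diet. Each tissue had 4 groups of 5 libraries, 60 libraries in all: Western diet with NaKtide, Western diet alone, control diet with NaKtide, and control diet alone. The Western diet held 42% fat and the control chow 11% fat. NaKtide, a peptide that blocks signalling from the Na,K-ATPase through Src, came here from a transgene switched on by doxycycline at 300 mg/kg of food. The series title speaks of adipocytes, but the promoter of the transgene, the strain, sex and age of the mice, and whether mice without NaKtide ate doxycycline or carried the transgene are not stated in the labels. The transgene itself was not analysed here, so no group label could be checked against it, and each NaKtide difference includes any made by doxycycline or by genotype.

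Fat cells take up fuel by a small set of proteins. PPARγ and C/EBPα are the transcription factors that switch on and maintain the fat cell programme, and each is known to sustain the gene of the other. Lipoprotein lipase frees fatty acids from lipoproteins at the vessel wall, CD36 takes them across the cell membrane and FABP4 binds them in the cytosol. Insulin acts through the kinase AKT2 to bring the glucose transporter GLUT4, encoded by Slc2a4, to the surface, glycerol-3-phosphate dehydrogenase (Gpd1) makes the glycerol backbone of stored triglyceride, and aquaglyceroporin 7 (Aqp7) lets glycerol leave. Several of these genes are also known to be induced in fatty liver.

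Promoter windows of RefSeq (GRCm38.p6), the 250 bases before each start, were held for 5 of the 9 genes. They are shown because PPARγ and C/EBPα act on genes of this set through short DNA words: the nuclear receptor half-site AGGTCA and the C/EBP palindrome TTGCNNAA. Both were searched on both strands, with the GC box GGGCGG and the TATA box TATAAA. Capitals mark every match, a reverse match appears as its complement read backwards, and no match in these 4 windows overlaps another. The third start of Pparg lies at chr6:115421816-115422065 on the plus strand, Cebpa at chr7:35119043-35119292 plus, Cd36 at chr5:17835897-17836146 minus and the first start of Aqp7 at chr4:41048137-41048386 minus.
Pparg: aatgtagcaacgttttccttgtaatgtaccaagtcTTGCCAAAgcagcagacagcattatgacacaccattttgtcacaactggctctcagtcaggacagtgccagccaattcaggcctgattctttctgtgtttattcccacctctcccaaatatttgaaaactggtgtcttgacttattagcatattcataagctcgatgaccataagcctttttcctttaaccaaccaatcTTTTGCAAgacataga
Cebpa: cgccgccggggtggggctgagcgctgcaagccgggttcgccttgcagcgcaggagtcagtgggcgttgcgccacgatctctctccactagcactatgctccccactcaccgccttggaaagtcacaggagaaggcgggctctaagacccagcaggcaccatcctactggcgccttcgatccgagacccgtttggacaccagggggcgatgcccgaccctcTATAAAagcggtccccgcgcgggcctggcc
Cd36: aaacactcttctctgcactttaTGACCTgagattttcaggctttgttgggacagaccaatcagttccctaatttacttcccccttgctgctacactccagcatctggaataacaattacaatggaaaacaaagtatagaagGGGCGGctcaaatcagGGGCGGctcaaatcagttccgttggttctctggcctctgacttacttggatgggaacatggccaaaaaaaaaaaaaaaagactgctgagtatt
Aqp7: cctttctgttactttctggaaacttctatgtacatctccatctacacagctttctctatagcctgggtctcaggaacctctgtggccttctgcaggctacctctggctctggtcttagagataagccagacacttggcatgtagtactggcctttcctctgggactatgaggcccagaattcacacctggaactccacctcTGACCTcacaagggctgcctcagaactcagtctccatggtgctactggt
The Pparg window held the C/EBP palindrome at both -215 to -208 and -16 to -9 relative to the start. The Cd36 window held AGGTCA at -228 to -223 and a pair of GC boxes, the Aqp7 window held AGGTCA at -49 to -44, and the Cebpa window held a TATA box at -30 to -25. These 4 windows are a selection from the 11 of these genes. The palindrome was in no other of the 11, the first and second starts of Pparg included. AGGTCA was also at both of those starts and at the second of Aqp7, and in no window of Akt2. Starts 2 to 4 of Akt2 held no match. Among all 32851 windows of the same length, 14% held AGGTCA, 9.56% the C/EBP palindrome, 32.7% the GC box and 12.4% the TATA box. The half-site repeated after a 1-base gap (DR1), the form that PPARγ binds with its RXR partner, was in 0.0335% of windows and in none of the 11 windows of these genes. A match of letters is a description and not a site of binding.

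Levels per length (FPKM, fragments scaled to transcript length and to the library, as deposited) ranked the 3 tissues alike for most of the genes. Fabp4 was the most abundant in fat, with 1043 ± 233 FPKM in subcutaneous fat and 753 ± 294 FPKM in visceral fat, against 6.16 ± 5.92 FPKM in liver (SD, n = 20 libraries each). Lpl had 366 ± 89.9, 326 ± 151 and 6.01 ± 3.92 FPKM in the same order of tissues. Aqp7 had 38.0 ± 8.51, 30.0 ± 13.0 and 0.148 ± 0.245 FPKM, so the glycerol channel was all but missing from the liver.

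A pair of the genes was not restricted to fat. Cebpa, which hepatocytes are known to use as well, had 319 ± 65.0 FPKM in subcutaneous fat, 220 ± 93.8 in visceral fat and 301 ± 34.4 in liver. Gpd1 had 388 ± 92.5, 212 ± 110 and 217 ± 46.4 FPKM, so visceral fat and liver overlapped. Counts scaled to depth within each tissue (CPM) had medians of 1019, 791 and 551 for Cebpa in the same order of tissues. For Gpd1 they were 1336, 700 and 424. By those medians liver was lowest for both genes, so their order of tissues depends on the scaling. Pparg (64.7 ± 19.0, 52.3 ± 24.2 and 10.9 ± 5.03 FPKM), Cd36 (262 ± 66.7, 246 ± 110 and 18.3 ± 12.6), Slc2a4 (77.9 ± 42.5, 34.2 ± 19.3 and 3.90 ± 3.57) and Akt2 (67.3 ± 8.23, 43.4 ± 18.2 and 19.2 ± 1.87) were higher in either fat than in liver by their means.

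**Figure D1:**
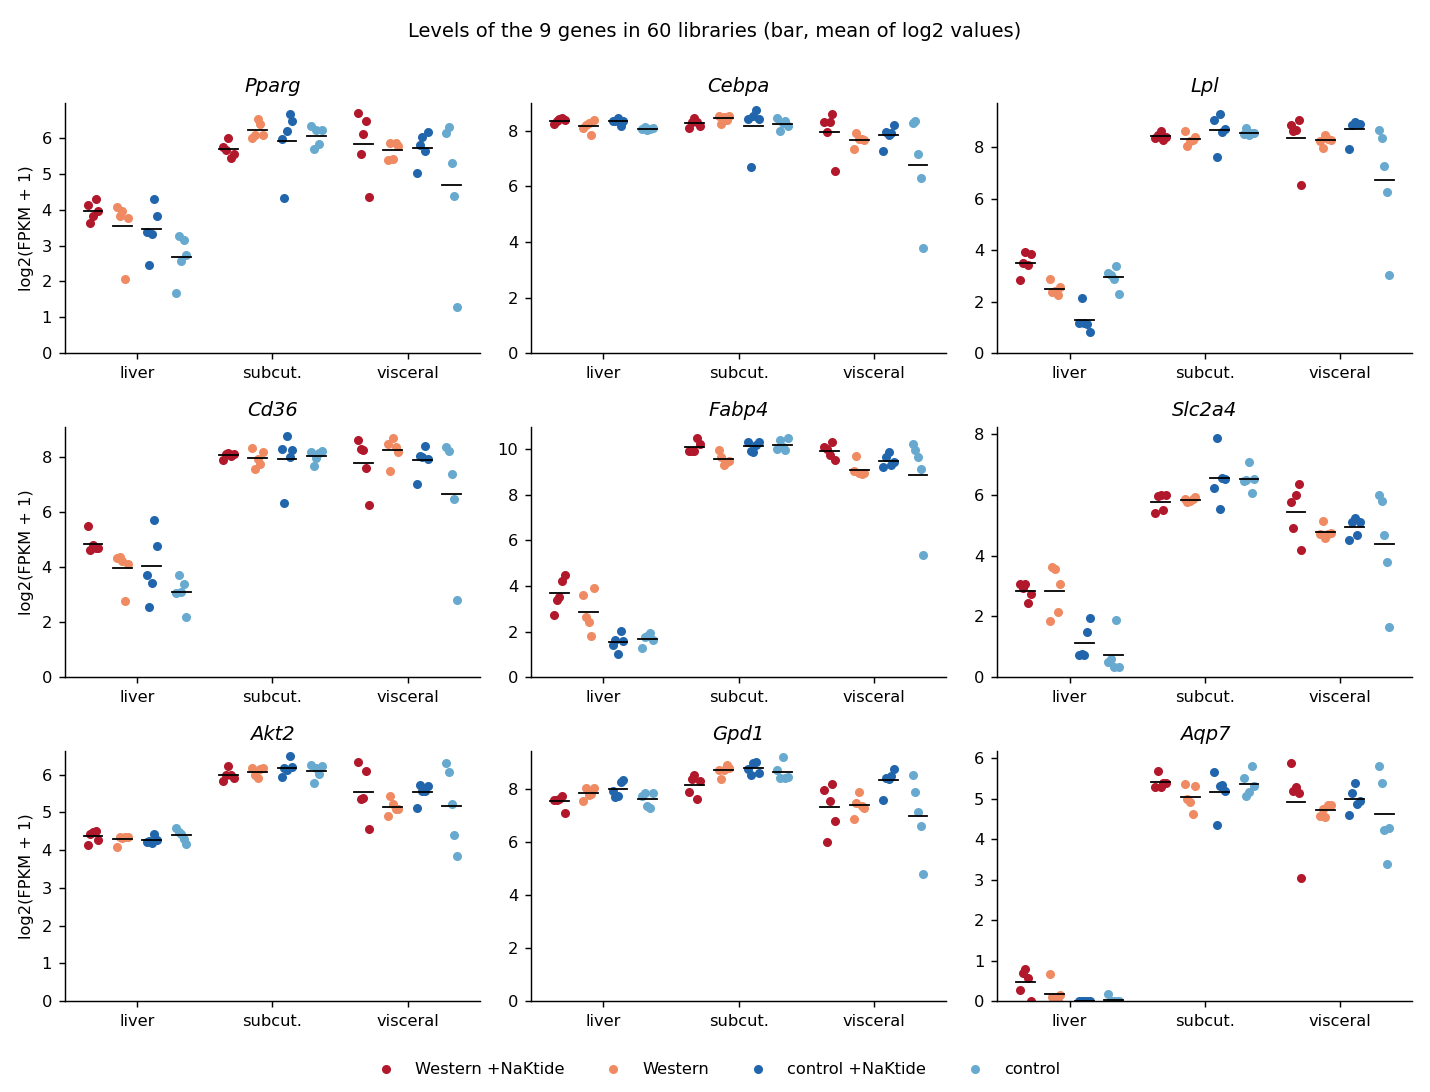
Level of each gene as log2(FPKM + 1) in every library (points), by tissue and group, with the mean of each group as a bar. Within each tissue the groups run from Western diet with NaKtide to control diet. Liver values of Fabp4, Lpl, Slc2a4 and Aqp7 lie below those of most fat libraries. Visceral control library 5 lies far below its group for Pparg, Cebpa, Lpl, Cd36 and Fabp4. Its Lpl, Slc2a4 and Cd36 (7.19, 2.14 and 6.05 FPKM) lie inside the liver range. Its Pparg, Cebpa, Gpd1 and Akt2 (1.43, 12.8, 26.9 and 13.3 FPKM) lie below every liver.

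When the 12 groups were ordered by mean FPKM, neighbours in that order overlapped in their libraries at 11 of 11 steps for Pparg, Cebpa, Cd36 and Gpd1 and at 10 of 11 steps for Fabp4, Lpl, Aqp7 and Akt2. For Fabp4, Aqp7 and Akt2 the single gap separated the lowest fat group from the highest liver group. Slc2a4 had 3 gaps (8 of 11 steps overlapped). One lay between control-diet subcutaneous fat (93.8 ± 24.6 FPKM) and Western-diet subcutaneous fat (56.6 ± 2.37). The others parted visceral fat on Western diet (26.7 ± 4.54) from liver on Western diet (7.13 ± 4.08), and liver on Western diet with NaKtide (6.30 ± 1.23) from liver on control diet with NaKtide (1.33 ± 0.973). The single gap of Lpl lay inside the liver, between Western diet (4.74 ± 1.03 FPKM) and control diet with NaKtide (1.60 ± 1.06).

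Libraries held 3.18 to 9.78 M counts (median 6.41 M). Values from here on are CPM, counts scaled to library depth by TMM within a tissue. A difference is a log2 ratio ± standard error, first-named group over second, and "adjusted p" is the Benjamini-Hochberg value over all genes tested from the quasi-likelihood test of edgeR; a gene is called at 0.05. Transcripts of other tissues were present in some libraries and are given beside the results they touch: skeletal muscle genes in subcutaneous fat and in control livers 2 and 4, and genes of the male reproductive tract and testis in visceral fat. In whole tissue, fewer cells of a type and less RNA per cell cannot be told apart. The design text gives 5 mice per group, and nothing says whether 1 mouse gave more than 1 tissue.

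In liver, the glucose transporter gene Slc2a4 and the fatty acid carrier gene Fabp4 rose on Western diet, 2 of the 8 genes that passed the filter on low counts; over all genes 8.44% were called, 4.75% as higher. Slc2a4 had 6.29, 27.7, 26.3, 8.12 and 16.9 CPM in livers of Western-diet mice, against 0.950, 1.22, 0.632, 6.28 and 0.586 CPM in control livers. All 5 Western-diet values lay above all 5 control values, the lowest of them only just above control liver 4, which stood apart from the other controls. The difference was 3.10 ± 0.56, an 8.57-fold rise (adjusted p = 0.00138, edgeR). Control livers 2 and 4 also carried skeletal muscle transcripts, a tissue rich in GLUT4: their summed muscle markers were 365 and 823 CPM, against 13.1 to 32.9 CPM in the other 3 control livers and 4.32 to 11.7 CPM in Western-diet livers. Without those 2 controls the Slc2a4 difference was 4.52 ± 0.69 (adjusted p = 0.000994, edgeR).

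Fabp4 had 34.8, 16.3, 13.7, 7.78 and 41.4 CPM in Western-diet livers, against 4.27, 7.17, 7.59, 8.66 and 6.26 CPM in control livers. Western-diet liver 4 lay inside the control range, and the other 4 lay above it. Fabp4 rose by 1.74 ± 0.42, 3.34-fold (adjusted p = 0.0114, edgeR). FABP4 is known from macrophages as well as fat cells. Summed macrophage markers were 92.6 to 199 CPM in Western-diet livers and 56.6 to 120 CPM in control livers; their part in the result was not tested.

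Pparg and Cd36 were also higher in most Western-diet livers without being called. Pparg had 32.8, 26.7, 30.0, 6.43 and 24.7 CPM in Western-diet livers, against 4.27, 17.1, 9.80, 15.6 and 11.1 CPM in control livers. Its difference was 1.04 ± 0.38 (adjusted p = 0.0931, edgeR), with a call in 2 of 18 alternatives: by voom (1.23, adjusted p = 0.0347) and without Western-diet liver 4, which also had the lowest Fabp4 and Cd36 of its group (1.28 ± 0.32, adjusted p = 0.0156). Cd36 had 47.6, 49.1, 44.4, 14.2 and 38.4 CPM in Western-diet livers, against 17.6, 29.6, 18.02, 22.7 and 8.601 CPM in control livers (1.00 ± 0.47, adjusted p = 0.201, edgeR).

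The remaining 4 tested genes were not called for diet in liver. Lpl differed by -0.51 ± 0.30 (adjusted p = 0.324), Gpd1 by 0.23 ± 0.16 (adjusted p = 0.42), Cebpa by 0.12 ± 0.11 (adjusted p = 0.548) and Akt2 by -0.08 ± 0.11 (adjusted p = 0.71, all edgeR). The median over the 8 genes was 0.62, against 0.03 over all 12991 genes tested, and the groups did not overlap for 1 of the 8 genes, Slc2a4, against 7.23% of all genes. Aqp7 failed the filter. It had 17 counts over the 5 livers with Western diet and NaKtide, 9 over the 5 Western-diet livers (7 of them in library 1), none over the 5 with control diet and NaKtide, where 3 counts would be 0.0951 CPM, and 1 over the 5 control livers, where 3 counts would be 0.122 CPM.

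Stray fat tissue was looked for by the genes that only fat cells express strongly. The sum of 10 adipocyte markers was 23.0 to 237 CPM in Western-diet livers and 23.7 to 44.4 CPM in control livers, and on Western diet much of it came from Cidec (median 73.6 CPM) and Plin4 (median 13.6 CPM), lipid droplet genes that fatty hepatocytes are also known to express. Adipoq, the defining adipokine, was at 0 in all 5 control livers, at 0 in 3 Western-diet livers, at 0.180 CPM in Western-diet liver 3 and at 5.24 CPM in Western-diet liver 5; Lgals12 was at 0 in all 4 liver groups. Cfd, the adipokine adipsin and another of the 10 markers, rose with diet as Fabp4 did, with 0.169 to 30.8 CPM in Western-diet livers and 0.196 to 2.27 CPM in control livers (4.15 ± 0.79, adjusted p = 0.00218, edgeR). The part of fat tissue in the Fabp4 and Slc2a4 results was not tested.

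Lpl rose with NaKtide on Western diet in liver, 1 of the 8 genes tested, where 4.79% of all genes were called, 2.24% as higher. Lpl had 42.8, 74.0, 97.5, 67.2 and 97.2 CPM in livers with Western diet and NaKtide, against 47.2, 30.3, 31.8, 27.4 and 33.98 CPM with Western diet alone. The groups overlapped through the first library of each, and the other 4 NaKtide livers lay above all Western-diet livers. Lpl rose by 1.14 ± 0.30, 2.21-fold (adjusted p = 0.0317, edgeR). The call was lost when any 1 of 8 of the 10 libraries was left out (adjusted p = 0.0575 to 0.0913), namely Western-diet livers 2 to 5 and NaKtide livers 2 to 5, with differences of 1.04 to 1.18 in every case.

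Cd36 was 1 of the 8 tested genes, and the only one, whose groups did not overlap here (4.4% of all genes did not). It had 104, 57.2, 62.6, 57.4 and 61.1 CPM in livers with Western diet and NaKtide, against 47.6, 49.1, 44.4, 14.2 and 38.4 CPM on Western diet alone (0.83 ± 0.45, adjusted p = 0.258, edgeR). Fabp4 averaged 39.1 ± 19.8 CPM with NaKtide and 22.8 ± 14.5 CPM without (0.77 ± 0.38, adjusted p = 0.212). Slc2a4 averaged 14.7 ± 2.85 and 17.0 ± 9.92 CPM (-0.21 ± 0.45, adjusted p = 0.806), Pparg 29.3 ± 5.48 and 24.1 ± 10.4 CPM (0.28 ± 0.36, adjusted p = 0.654) and Gpd1 366 ± 50.8 and 462 ± 58.1 CPM (-0.34 ± 0.16, adjusted p = 0.21, all edgeR, SD, n = 5 each). Cebpa and Akt2 differed by 0.16 ± 0.11 and 0.04 ± 0.11 and were not called. Macrophage markers summed to 246 to 312 CPM in livers with Western diet and NaKtide and to 92.6 to 199 CPM on Western diet alone; their part in Lpl was not tested.

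On control diet the same gene moved the other way. Lpl had 9.15, 24.4, 9.18, 8.48 and 5.57 CPM in livers with control diet and NaKtide, against 53.4, 50.5, 45.2, 66.7 and 27.0 CPM with control diet alone. Every NaKtide liver lay below every control liver, the nearest pair being 24.4 and 27.0 CPM. Lpl fell by 2.12 ± 0.32 on the log2 scale, to 0.23 of the control level (adjusted p = 0.0022, edgeR), the only call among the 8 genes, where 1.55% of all genes were called, 0.408% as lower. It was called under all 18 alternatives run.

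The difference between the 2 NaKtide effects on Lpl was itself called. The interaction, which takes the control-diet effect from the Western-diet one, was 3.27 ± 0.44 (adjusted p = 0.000402, edgeR), where 5% of all genes were called, 2.07% as higher, and it was called under all 27 alternatives run. Without control livers 2 and 4 it was 3.04 ± 0.47 (adjusted p = 0.00329); muscle is known to express much lipoprotein lipase. The 4 groups averaged 75.7 ± 22.9 CPM with Western diet and NaKtide, 34.2 ± 7.70 with Western diet, 11.3 ± 7.43 with control diet and NaKtide, and 48.6 ± 14.4 with control diet (SD, n = 5 each).

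The other 7 tested genes were not called for NaKtide on control diet. Cebpa had 584, 579, 638, 513 and 592 CPM with control diet and NaKtide, against 470, 501, 461, 464 and 477 CPM on control diet alone. These groups did not overlap (4.07% of all genes did not), but the difference of 0.29 ± 0.11 gave adjusted p = 0.184 (edgeR). Cd36 spread widely with NaKtide (30.0, 11.6, 23.8, 125 and 64.2 CPM, against 17.6, 29.6, 18.02, 22.7 and 8.601 CPM in control livers; 1.40 ± 0.47, adjusted p = 0.132), and without NaKtide liver 2 its difference of 1.65 ± 0.42 was called (adjusted p = 0.0365). Pparg (0.91 ± 0.38, adjusted p = 0.2), Slc2a4 (0.69 ± 0.61, adjusted p = 0.541), Gpd1 (0.40 ± 0.16, adjusted p = 0.194), Fabp4 (-0.16 ± 0.44) and Akt2 (-0.11 ± 0.11) were not called. Gpd1 gave the next smallest interaction p after Lpl, -0.74 ± 0.23 (adjusted p = 0.0606, edgeR), and was called in 7 of 27 alternatives.

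**Figure D2:**
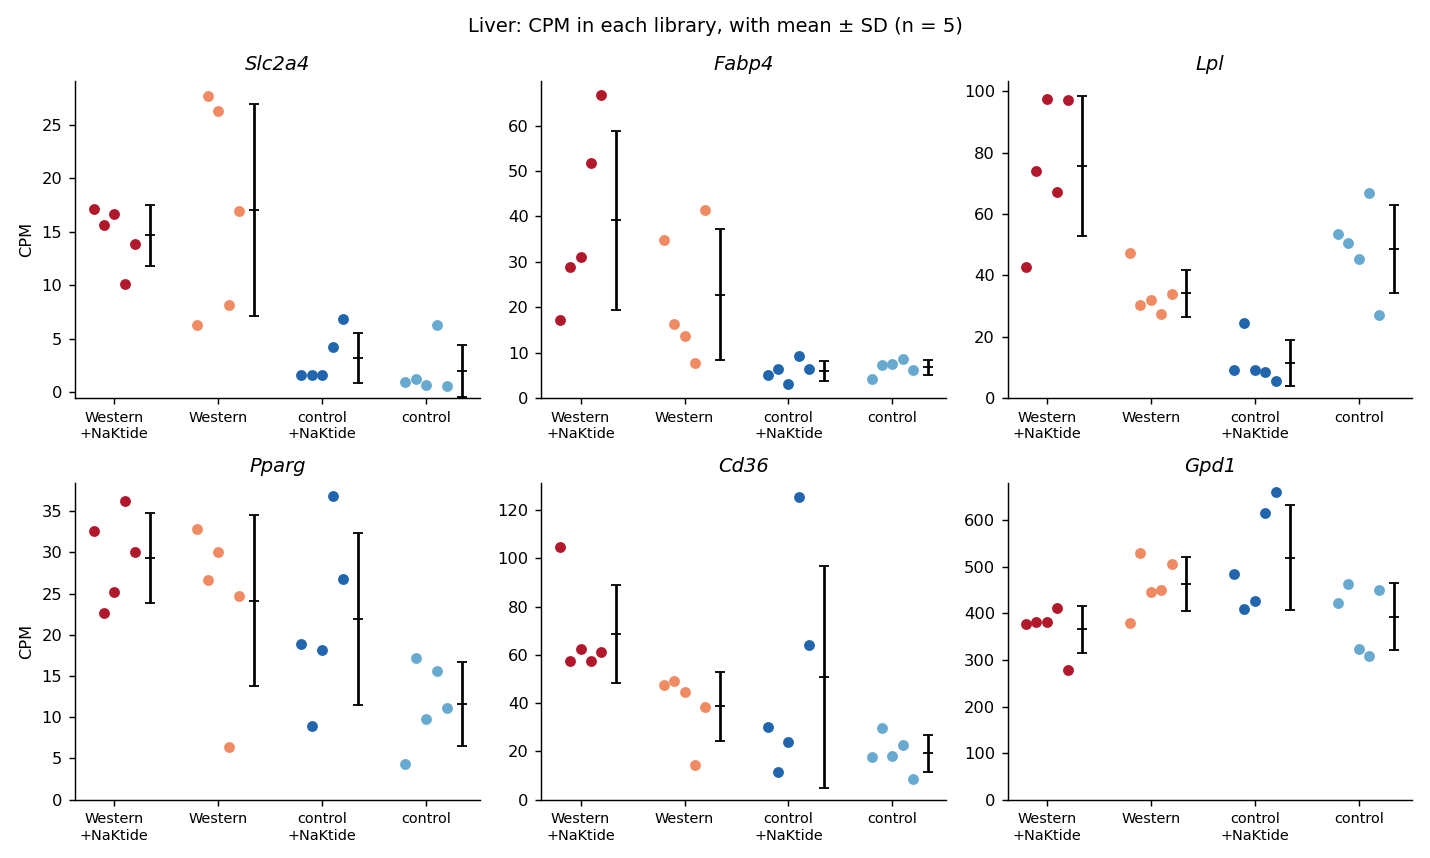
CPM of 6 of the genes in the 20 livers, 1 point per library, with the group mean ± SD (n = 5) beside the points. Slc2a4 and Fabp4 are high in both Western-diet groups, and Lpl runs from 75.7 CPM on average with Western diet and NaKtide to 11.3 CPM with control diet and NaKtide.

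Genes that work beside these in the liver were counted against the 8.44% of all genes called for diet, 4.75% as higher. Of 16 tested genes of glycerol and triglyceride synthesis, 6 were higher and 1 lower on Western diet. Gpam, which adds the first fatty acid to glycerol-3-phosphate, had 69.6 ± 24.8 CPM on Western diet and 6.46 ± 2.68 CPM on control diet (3.42 ± 0.63, adjusted p = 0.00171, edgeR). Of 23 fatty acid uptake and activation genes, 3 were higher and 4 lower, among them Acsl5, an acyl-CoA synthetase (1.02 ± 0.21, adjusted p = 0.00403), and Slc27a5, the liver fatty acid transporter and bile acid ligase (-0.71 ± 0.16, adjusted p = 0.00663). Of 22 glucose uptake and insulin signal genes, 2 were higher and 1 lower; Slc2a2, the main glucose transporter of hepatocytes, had 146 ± 37.6 and 76.2 ± 23.9 CPM (0.94 ± 0.26, adjusted p = 0.0297). Of 14 further genes of the fat cell programme, 4 were higher and 2 lower, led by Srebf1, the lipogenic transcription factor (1.38 ± 0.20, adjusted p = 0.00015). Medians of these lists were 0.28, 0.27, 0.31 and -0.32, against 0.03 over all genes tested.

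Some of the same neighbours changed with NaKtide. On Western diet, Gk, the kinase that returns glycerol to use, was higher (46.3 ± 8.32 against 23.8 ± 5.76 CPM, 0.95 ± 0.20, adjusted p = 0.00722), while Lpin1, a phosphatidate phosphatase, was lower (-1.90 ± 0.43, adjusted p = 0.0136). Counts of higher and lower genes were 3 and 1 of 16 for glycerol and triglyceride synthesis, 1 and 1 of 23 for fatty acid uptake, 0 and 2 of 22 for glucose uptake, and 0 and 0 of 14 for the fat cell programme, where 4.79% of all genes were called. On control diet, Gpam (68.0 ± 79.6 against 6.46 ± 2.68 CPM, 3.40 ± 0.63, adjusted p = 0.00873) and Slc2a2 (202 ± 62.3 against 76.2 ± 23.9 CPM, 1.41 ± 0.27, adjusted p = 0.00972) were higher, and no tested gene of the 4 lists was lower (1.55% of all genes called, 0.408% lower).

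In subcutaneous fat none of the 9 genes was called for diet. Over all genes 5.61% were called by edgeR, and many more by voom. The 2 genes with an unadjusted p under 0.05 were Fabp4 and Slc2a4, DESeq2 called Fabp4 lower, and limma's voom called both lower. Fabp4 had 5303, 4276, 3322, 3709 and 3753 CPM on Western diet, against 5605, 7163, 6120, 5235 and 7684 CPM on control diet. A single Western-diet library reached into the control range. The difference was -0.64 ± 0.21 (adjusted p = 0.0696, edgeR).

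Slc2a4 separated the diet groups in subcutaneous fat, as 11.8% of all genes did. It had 232, 224, 227, 236 and 244 CPM on Western diet, against 365, 372, 576, 268 and 386 CPM on control diet (-0.76 ± 0.31, adjusted p = 0.145, edgeR). Muscle transcripts ran in step with it: 15 skeletal muscle markers summed to 114, 71.0, 96.7, 261 and 87.3 CPM in the same Western-diet libraries, against 16074, 53397, 60654, 8030 and 46684 CPM in the control libraries. With the muscle sum as a covariate the Slc2a4 difference was 0.52 ± 0.32 (adjusted p = 0.559), and 1 of 15226 genes was called. Diet and muscle content nearly coincide in these 10 libraries, so the diet difference and the muscle share cannot be told apart there. With NaKtide on control diet only the extremes went together: library 2 had 258254 CPM of muscle markers and 949.9 CPM of Slc2a4, and library 3 had 111 and 186 CPM. Library 4 had less muscle (3442 CPM) than libraries 1 and 5 (10682 and 18223 CPM) but more Slc2a4 than either. With Western diet and NaKtide, library 5 had the most Slc2a4 of its group (257.7 CPM) beside 98.8 CPM of muscle markers.

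**Figure D3:**
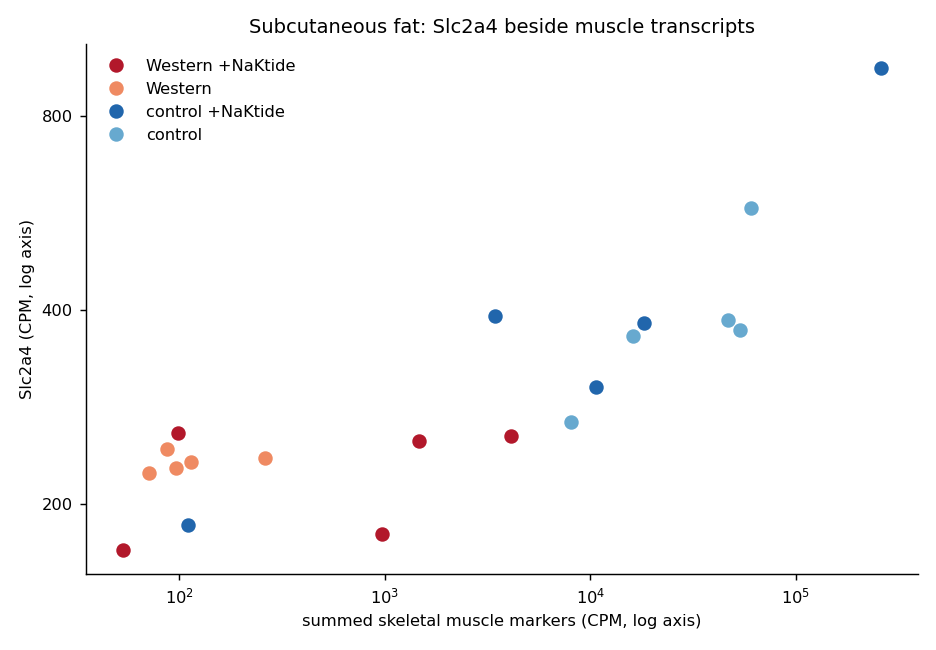
Slc2a4 against the sum of 15 skeletal muscle markers in the 20 subcutaneous fat libraries, both in CPM on log axes, coloured by group. All 5 Western-diet libraries lie at the low end of both axes, and library 2 of control diet with NaKtide lies at 258254 CPM of muscle markers and 949.9 CPM of Slc2a4.

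The other 7 genes had no unadjusted p under 0.05 on Western diet in subcutaneous fat. Gpd1 differed by 0.00 ± 0.21 (adjusted p = 0.996), Akt2 by -0.04 ± 0.14 (adjusted p = 0.886), Cd36 by -0.10 ± 0.29 (adjusted p = 0.864), Pparg by 0.12 ± 0.29 (adjusted p = 0.833), Cebpa by 0.16 ± 0.25 (adjusted p = 0.729), Lpl by -0.26 ± 0.24 (adjusted p = 0.518) and Aqp7 by -0.36 ± 0.20 (adjusted p = 0.294, all edgeR). The median over the 9 genes was -0.10, against -0.02 over all genes tested. Of the neighbouring genes, Gpihbp1, which anchors lipoprotein lipase to capillaries, was lower (130 ± 23.9 against 265 ± 56.8 CPM, -1.02 ± 0.28, adjusted p = 0.0401), and Acsl3 was higher (1.52 ± 0.30, adjusted p = 0.0128). In all, 3 of 20 fatty acid uptake genes, 1 of 23 glucose uptake genes, 2 of 16 glycerol and triglyceride genes and 0 of 22 further fat cell programme genes were called, where 5.61% of all genes were; with the muscle covariate 1 gene of all 15226 was.

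NaKtide on Western diet gave no call in subcutaneous fat by edgeR (0 of 9 genes, and 0% of all genes). Among the 9 genes 2 had an unadjusted p under 0.05, and neither DESeq2 nor voom called any of the 9. Gpd1 had 832, 1147, 1274, 674 and 1106 CPM with Western diet and NaKtide, against 1461, 1184, 1474, 1659 and 1505 CPM on Western diet alone (-0.53 ± 0.21, adjusted p = 0.311, edgeR). Fabp4 averaged 5818 ± 1109 CPM with NaKtide and 4073 ± 767 CPM without (0.51 ± 0.21, adjusted p = 0.315), and Pparg 176 ± 28.3 and 257 ± 43.7 CPM (-0.55 ± 0.29, adjusted p = 0.466). On control diet NaKtide gave 0 calls among the 9 genes and 0% over all genes, with no unadjusted p under 0.05 among the 9 and no call by DESeq2 or voom; the 9 differences ran from -0.17 ± 0.20 (Aqp7) to 0.17 ± 0.31 (Slc2a4). The interaction likewise gave 0 calls by edgeR, DESeq2 and voom (0% of all genes by edgeR), with 1 unadjusted p under 0.05.

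In visceral fat none of the 9 genes was called in any of the 4 comparisons, although 24.9% of all genes were called for Western diet, 13.2% for NaKtide on Western diet, 7.15% for NaKtide on control diet and 32.2% for the interaction. None of the 9 had an unadjusted p under 0.05 in any of them, and DESeq2 called none; voom, which weighs down discordant libraries, called Fabp4, Slc2a4 and Akt2 for Western diet (all lower), NaKtide on Western diet (all higher) and the interaction (all higher), and none for NaKtide on control diet. For Western diet and for NaKtide on Western diet, voom also called more of all genes than edgeR, as counted in the section on processing. The control group was very uneven. Pparg had 152, 217, 158, 215 and 204 CPM on Western diet, against 259, 294, 152, 75.6 and 4.96 CPM on control diet. Lpl had 3998, 3379, 4783, 4269 and 4141 CPM on Western diet, against 5363, 4389, 2126, 1018 and 88.3 CPM on control diet.

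Reproductive tract transcripts were uneven in the same libraries. Of the 20 visceral libraries, 7 had over 1000 CPM of summed tract and testis markers: control libraries 3, 4 and 5 (11926, 30015 and 18262 CPM), library 1 of control diet with NaKtide (6423 CPM) and libraries 2, 3 and 5 of Western diet with NaKtide (2798, 1082 and 35007 CPM). Western-diet library 1 fell just short with 856 CPM. The 10 adipocyte markers summed to 993 CPM in control library 5, against 23296 and 21272 CPM in control libraries 1 and 2.

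A planned repeat without those 7 libraries rested on 13 libraries of uneven groups: 2 with Western diet and NaKtide, 5 with Western diet, 4 with control diet and NaKtide and 2 with control diet. On Western diet 6 of the 9 genes were called lower and none higher, where 15.6% of all genes were called in either direction. Akt2 had 259, 386, 333, 304 and 303 CPM on Western diet, against 708 and 608 CPM in the 2 remaining control libraries. These values did not overlap, but only 2 control libraries remained, and how many of all genes separate in this subset was not computed. The difference was -1.05 ± 0.15 (adjusted p = 0.0013, edgeR). Slc2a4 had 110, 155, 103, 114 and 116 CPM, against 280 and 242 CPM (-1.12 ± 0.21, adjusted p = 0.00426). Fabp4 (-0.96 ± 0.22, adjusted p = 0.013), Aqp7 (-0.91 ± 0.21, adjusted p = 0.012), Gpd1 (-0.81 ± 0.24, adjusted p = 0.036) and Cebpa (-0.63 ± 0.17, adjusted p = 0.0254) were the others called. Lpl (-0.24 ± 0.14, adjusted p = 0.287) and Cd36 (0.01 ± 0.30, adjusted p = 0.991), both of fatty acid uptake, and Pparg (-0.55 ± 0.19, adjusted p = 0.0725) were not.

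NaKtide on Western diet ran the opposite way in the same 13 libraries: 7 of the 9 genes were called higher and none lower, where 20.8% of all genes were called. These 2 comparisons share the Western-diet libraries, so opposite signs are in part built in. Slc2a4 had 240 and 376 CPM in the 2 remaining libraries with Western diet and NaKtide, against 110, 155, 103, 114 and 116 CPM on Western diet alone (1.36 ± 0.21, adjusted p = 0.00107, edgeR). Akt2 had 736 and 645 CPM, against 259, 386, 333, 304 and 303 CPM (1.12 ± 0.15, adjusted p = 0.000607). Fabp4 (1.11 ± 0.22), Pparg (0.96 ± 0.19), Aqp7 (0.90 ± 0.21), Cebpa (0.82 ± 0.17) and Lpl (0.74 ± 0.14) were the others, with adjusted p of 0.00383 to 0.0102. Gpd1 (0.70 ± 0.24, adjusted p = 0.0539) and Cd36 (-0.08 ± 0.30, adjusted p = 0.872) were not called.

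With control diet the 13 libraries gave 2 genes lower under NaKtide, Slc2a4 (-0.87 ± 0.22, adjusted p = 0.0238) and Akt2 (-0.56 ± 0.16, adjusted p = 0.0432), where 11.8% of all genes were called. The interaction was called for 6 genes, all higher, where 26.4% of all genes were called, with Slc2a4 at 2.23 ± 0.30 (adjusted p = 0.000267) and Akt2 at 1.69 ± 0.23 (adjusted p = 0.000243, edgeR). Leaving out only control library 5 gave 0 calls for Western diet (25.4% of all genes called), and 1, Fabp4, for the interaction (1.09 ± 0.34, adjusted p = 0.0214; 36.3%).

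Adipocyte markers and macrophage markers moved with these groups too. The adipocyte sum was 27718 and 28311 CPM in the 2 remaining libraries with Western diet and NaKtide, 11980 to 12798 CPM on Western diet, 13020 to 13371 CPM in the 4 remaining with control diet and NaKtide, and 23296 and 21272 CPM in the 2 remaining control libraries. The macrophage sum was 500 to 1127, 1371 to 3764, 1803 to 2699 and 459 to 534 CPM in the same order. The part of either in the results was not tested beyond the covariate that follows.

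All 20 libraries were also fitted with the adipocyte sum as a covariate, an alternative added after the values were seen. Slc2a4, Akt2, Aqp7 and Fabp4 had no call in any of the 4 visceral comparisons. They had none in the fit of the same 20 libraries without the covariate either. Slc2a4 was at -0.09 ± 0.20 for Western diet (adjusted p = 0.779) and 0.04 ± 0.20 for NaKtide on Western diet (adjusted p = 0.904, edgeR). The 2 genes of fatty acid entry were called higher on Western diet under the covariate, where 28.3% of all genes were called. Lpl differed by 0.90 ± 0.14 (adjusted p = 0.00031) and Cd36 by 1.00 ± 0.25 (adjusted p = 0.00887). Pparg was called too (0.44 ± 0.16, adjusted p = 0.0451, all edgeR).

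NaKtide on Western diet gave 4 genes lower under that covariate, Cd36 (-1.25 ± 0.26, adjusted p = 0.00195), Lpl (-0.72 ± 0.14, adjusted p = 0.0016), Pparg (-0.64 ± 0.16, adjusted p = 0.00724) and Cebpa (-0.39 ± 0.14, adjusted p = 0.0467; 30% of all genes called). NaKtide on control diet gave 4 higher, with Lpl at 1.39 ± 0.15 (adjusted p = 1.43e-05; 13.2%). Lpl per 1000 CPM of adipocyte markers was 403 to 505 with control diet and NaKtide, against 88.9 to 230 on control diet. These groups did not overlap on this ratio for Lpl, nor for Pparg, Cebpa and Cd36. How many of all genes separate on it was not computed. Cfd, 1 of the 10 markers in the covariate, was itself called lower on Western diet (1531 against 4292 CPM on average, -1.49 ± 0.51, adjusted p = 0.0416) and higher with NaKtide on Western diet (7195 against 1531 CPM, 2.23 ± 0.52, adjusted p = 0.0104). With NaKtide on control diet Cfd was called lower (1132 against 4292 CPM, -1.92 ± 0.51, adjusted p = 0.0282, all edgeR). A lower marker sum raises these ratios. The part of Cfd in the ratios and in the covariate results was not tested.

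**Figure D4:**
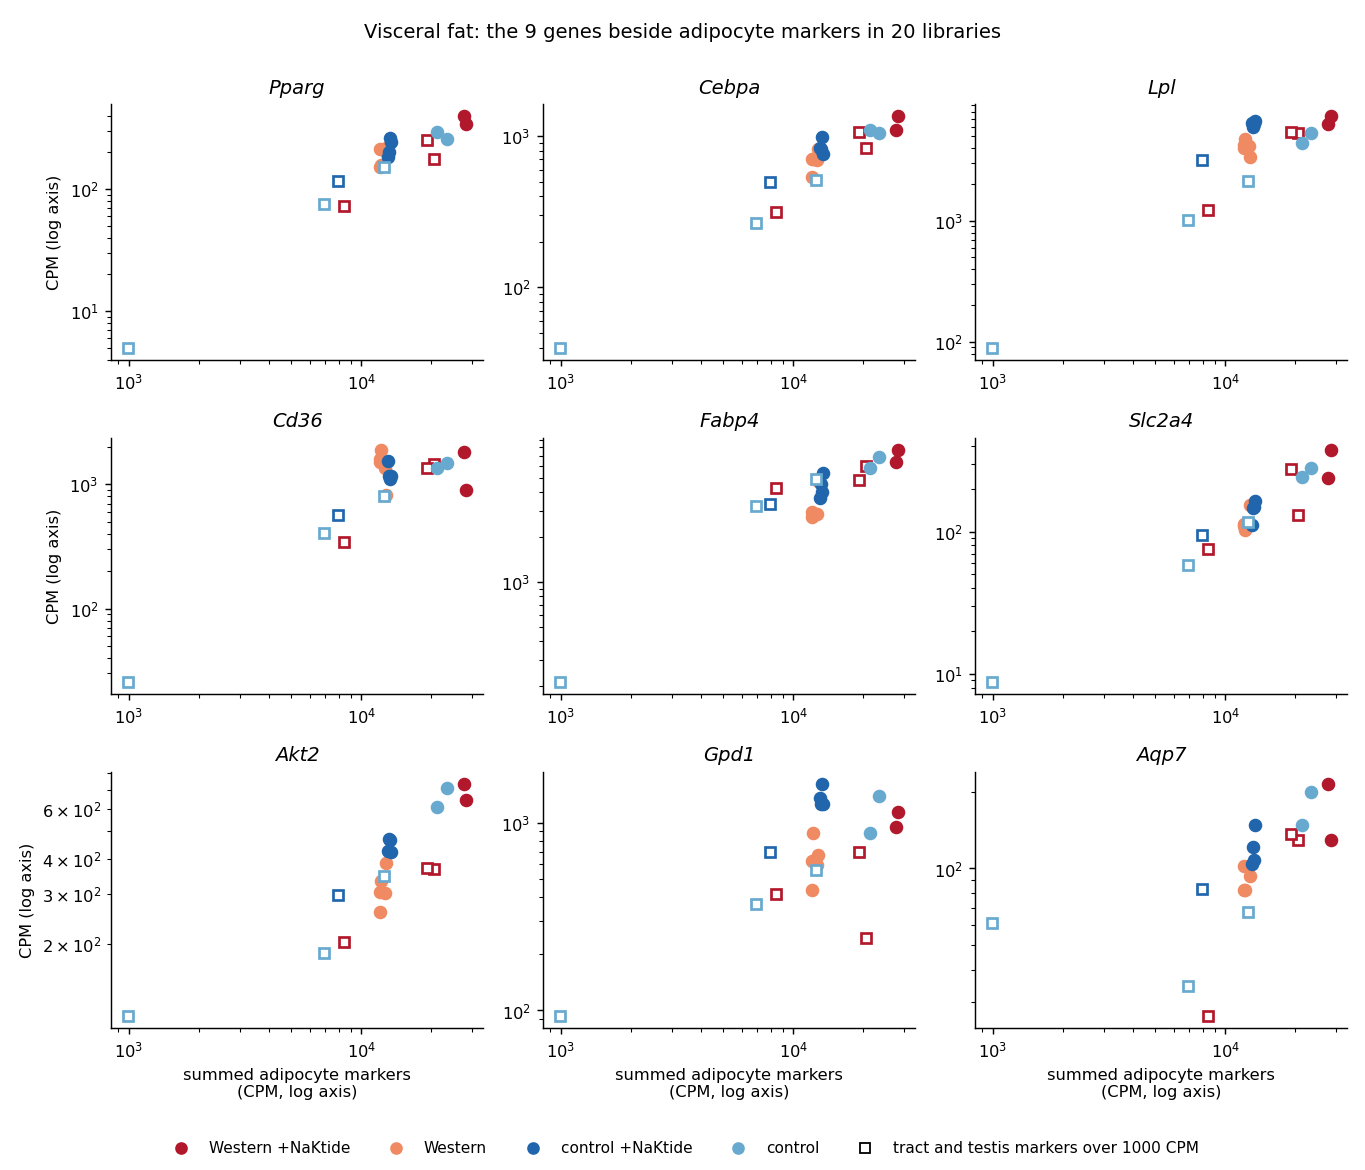
The 9 genes against the sum of 10 adipocyte markers in the 20 visceral fat libraries, in CPM on log axes, coloured by group; open squares are the 7 libraries with over 1000 CPM of tract and testis markers. Most genes run along the adipocyte sum, and Aqp7 and Akt2 of the control library at 993 CPM of adipocyte markers lie above that course.

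Control library 5 had the highest Aqp7, Akt2 and Gpd1 per adipocyte marker of its group. Its Aqp7 was 60.8 CPM, or 61.2 per 1000 CPM of adipocyte markers, against 8.003 to 11.0 in the libraries of control diet with NaKtide and 4.98 to 8.601 in the other 4 control libraries. Its Akt2 was 111 CPM, or 112 per 1000, against a median of 28.6 in the control group, and its Gpd1 was 93.8 per 1000, against 41.3 to 59.4 in the other 4 control libraries. Pparg (4.99 per 1000), Lpl (88.9) and Cd36 (25.6) were at the bottom of the control range in that library. Testis is known to express Aqp7, and most tissues express Akt2.

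**Figure D5:**
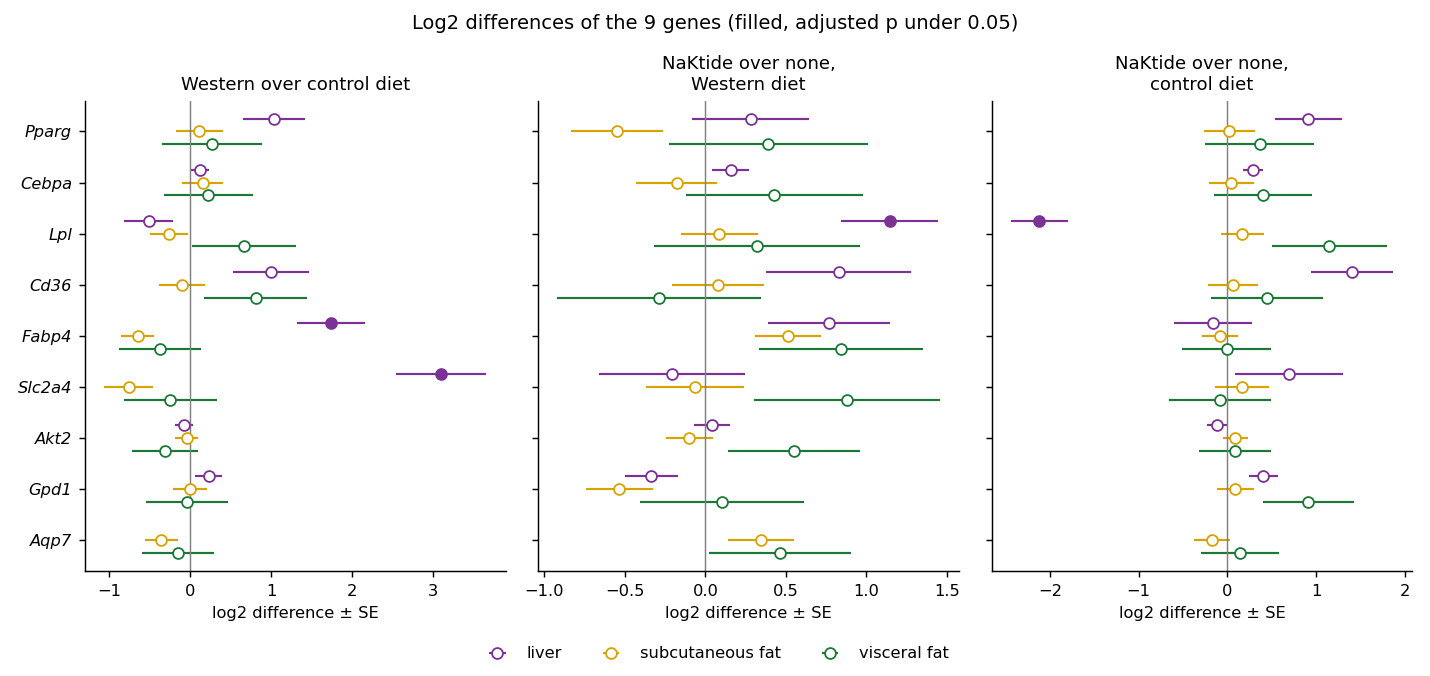
Log2 differences ± SE of the 9 genes in 3 comparisons in each tissue, from all libraries; filled points have adjusted p under 0.05, and Aqp7 was not tested in liver. The filled points are Slc2a4 and Fabp4 for diet and Lpl for NaKtide on either diet, all in liver.

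Between the fat depots on control diet, visceral fat had less Slc2a4 (-1.61 ± 0.48, adjusted p = 0.0151) and less Gpd1 (-1.28 ± 0.40, adjusted p = 0.0186, edgeR), 2 of 9 genes where 27.2% of all genes were called, 7.33% as lower. Neither call held in edgeR without the 7 tract-rich libraries (Slc2a4 -0.71 ± 0.36, adjusted p = 0.563, and Gpd1 -0.48 ± 0.27, adjusted p = 0.607). That fit kept only 2 control visceral libraries and called 0.0112% of all genes, so nearly every gene lost its call. Slc2a4 in control subcutaneous fat stood beside 8030 to 60654 CPM of muscle markers. On Western diet no visceral library passed 1000 CPM of tract markers, and subcutaneous muscle markers were 71.0 to 261 CPM. There edgeR called 0 of the 9 genes (2.08% of all genes), and 3 had an unadjusted p under 0.05. DESeq2 called 2 lower and voom 6 lower. Voom also called far more of all genes than edgeR did, as counted in the section on processing. Gpd1 had 169 ± 41.9 FPKM in visceral fat and 416 ± 50.5 FPKM in subcutaneous fat (SD, n = 5 each), a difference of -1.36 ± 0.40 (adjusted p = 0.0592, edgeR); Akt2 differed by -1.01 ± 0.31 (adjusted p = 0.0739). When the tract-rich libraries of the other groups were left out, the same 10 Western-diet libraries gave 4 genes lower in visceral fat (13.3% of all genes called): Gpd1 (-1.31 ± 0.20, adjusted p = 0.000278), Akt2 (-0.96 ± 0.13, adjusted p = 0.000194), Slc2a4 (-1.10 ± 0.27, adjusted p = 0.00912) and Cebpa (-0.77 ± 0.22, adjusted p = 0.0202).

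The effect of Western diet differed between liver and fat for 2 genes. The diet effect in liver minus that in subcutaneous fat was 3.85 ± 0.76 for Slc2a4 (adjusted p = 0.00501) and 2.38 ± 0.58 for Fabp4 (adjusted p = 0.0316, edgeR), where 0.699% of all genes were called, 0.594% as higher. Minus visceral fat it was 3.32 ± 0.76 for Slc2a4 (adjusted p = 0.00429) and 2.098 ± 0.58 for Fabp4 (adjusted p = 0.0159), where 10.4% were called, 7.22% as higher. Slc2a4 was called in all 26 alternatives of both comparisons. None of these used a muscle covariate or left out control livers 2 and 4 together. The subcutaneous part of the Slc2a4 value therefore still holds the diet difference that could not be told apart from muscle share. Fabp4 was called in 12 of 26 against subcutaneous fat and in 25 of 26 against visceral fat. Between the depots none of the 9 genes differed in its diet effect by edgeR (2.23% of all genes did); none had an unadjusted p under 0.05, DESeq2 called none and voom called Akt2 lower.

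The 9 genes varied together over all 40 fat libraries, but much less without the tract-rich ones, and much less in liver. Across the 40 fat libraries, with each group centred on its own mean of log2 CPM, the 36 pairs correlated at 0.353 to 0.971 with a median of 0.812, and 33 exceeded 0.5; Pparg and Cebpa were the closest pair. These libraries share their depth and their content of other tissues. Over the 33 fat libraries that were not tract-rich, the median was 0.222 (range -0.750 to 0.868) and 10 pairs exceeded 0.5. In the 20 livers the 28 pairs of 8 genes had a median of 0.166 (range -0.622 to 0.753), with 3 above 0.5.

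Genes most like these were ranked by the same correlation. In the 40 fat libraries Cebpa itself was the gene most like Pparg (r = 0.971), followed by Ghr and Hoxc8 (0.967 each). Hoxc8 led for Cebpa (0.982), Mcur1 for Lpl (0.976), Prkar2b for Cd36 (0.975), Pla2g16 for Fabp4 (0.946), Hspb8 for Slc2a4 (0.943), Nr1h3 for Akt2 (0.926) and Ppp2r5a for Gpd1 (0.893). Over the 33 libraries the leaders were Derl1 for Pparg (0.918), Lipe for Cebpa (0.939), Mmd for Lpl (0.907), Tmem106b for Cd36 (0.942), BC051226 for Fabp4 (0.852), Ecsit for Slc2a4 (0.933), Fbln5 for Aqp7 (0.856), Grhpr for Akt2 (0.683) and Slc25a51 for Gpd1 (0.71).

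In the 20 livers genes close to Cd36 were Aldh3a2 (0.936) and Sh3bgrl2 (0.888), and those nearest to Gpd1 were Eno1b (0.905) and Eno1 (0.896), which share near-identical sequence and may share reads. Pctp was nearest to Pparg (0.844), Raet1e to Fabp4 (0.829), Rps12 to Lpl (0.799), Rps6-ps2 to Cebpa (0.798), Pdk1 to Slc2a4 (0.780) and Irak1 to Akt2 (0.740). All correlations are descriptions over these libraries.

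By the annotation of GRCm38 (GENCODE M21), the genes called in liver are Slc2a4 (ENSMUSG00000018566) on chromosome 11 from 69942539 to 69948188, minus strand; Fabp4 (ENSMUSG00000062515) on chromosome 3 from 10204088 to 10208576, minus; and Lpl (ENSMUSG00000015568) on chromosome 8 from 68880491 to 68907448, plus. None of the 3 overlaps another annotated gene. Antisense genes overlap Pparg, Cebpa and Gpd1, with 0, 778 and 82 counts over 60 libraries beside 64128, 310328 and 354618 counts of the genes themselves. The kit marks strand, but the strand setting of the counting is not stated in the labels.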

How the data were processed

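RNA from 60 mouse tissue samples was read as poly(A) libraries (TruSeq stranded, paired ends). The authors deposited raw gene counts and FPKM values; per the submitters' processing notes Trimmomatic 0.38, HISAT2 2.1.0, DESeq2 1.20.0 and GRCm38 were used, and the counting program and its strand setting are not stated in the labels or notes. Groups came from the labels. The 9 genes and all gene lists were chosen with earlier results of these data known.

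Counts were tested with edgeR 4.0.16 (R 4.3.3; quasi-likelihood, TMM, filterByExpr, Benjamini-Hochberg over all genes tested) within each tissue's 20 libraries, over the 40 fat libraries and over all 60. The genes tested were 12991 in liver, 15226 in subcutaneous fat, 17235 in visceral fat, 17788 in both fats and 18175 in all tissues. Total counts were 3.18 to 7.16 M per liver, 3.49 to 9.78 M per subcutaneous and 4.19 to 9.49 M per visceral library. No 2 libraries were identical. P-values measure the spread between these samples, and floors from 3 counts cover counting error only. The script was tested on simulated counts.

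Alternatives were RLE scaling, no filter, DESeq2 1.42.0, limma 3.58.1 voom with quality weights, the replicate number as a block, fits of the compared groups alone, marker covariates and libraries left out. The text names all 9 genes, up to 2 higher and 2 lower called genes of smallest p from each list and comparison, and the 3 genes most alike by Pearson's r of group-centred log2 CPM (prior count 2) among genes of mean CPM of at least 10, or fewer of these. A few genes that this rule names are not reported here.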

Additional observations from a re-analysis of the deposited data

Results flagged for a closer look

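In 13 of 108 gene and group combinations 1 library stood apart from the other 4 of its group (gap over range above 0.71). For normally distributed values chance alone marks about 1 in 20. These are CPM values, some near 0, so that rate need not hold here. Aqp7 in livers with control diet and NaKtide, at 0 in every library, could not be marked. In liver these were Lpl at 24.36 CPM in library 2 of control diet with NaKtide (others 5.565 to 9.184), Cd36 at 104.4 CPM in library 1 of Western diet with NaKtide (others 57.24 to 62.56), Gpd1 at 278.7 CPM in library 5 of that group (others 377.5 to 411.4) and Slc2a4 at 6.281 CPM in control library 4 (others 0.5864 to 1.224). Aqp7 stood at 1.189 CPM in Western-diet library 1 (others 0 to 0.1942) and at 0.2375 CPM in control library 1 (others 0), which are 7 counts and 1 count.

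In subcutaneous fat, library 2 of control diet with NaKtide had Cebpa at 315.1 CPM (others 1058 to 1355) and Slc2a4 at 949.9 CPM (others 186.1 to 392.1), beside 258254 CPM of muscle markers. Aqp7 stood at 166.5 CPM in library 2 of Western diet with NaKtide (others 126.1 to 135.8). In visceral fat, Western-diet library 2 had Fabp4 at 4773 CPM (others 2739 to 2952) and Slc2a4 at 154.9 CPM (others 102.8 to 116). Library 1 of control diet with NaKtide, which had 6423 CPM of tract markers, had Lpl at 3195 CPM (others 6023 to 6750) and Akt2 at 298 CPM (others 421.9 to 468.7).

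Effects that differed between groups by a test of the difference were the NaKtide effect on liver Lpl between the diets (3.27 on the log2 scale), and the Western diet effect in liver against subcutaneous fat for Slc2a4 (3.85) and Fabp4 (2.38) and against visceral fat for the same genes (3.32 and 2.1).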

How the results depend on the processing

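Of 3122 alternative values, 3000 kept their call and, save 192 called in neither fit, their direction, 85 gained a call, 30 lost one and 7 called values changed sign, all in visceral fat. Without tract-rich libraries, Cebpa was -0.63 for Western diet and Akt2 -0.56 for NaKtide on control diet. With the adipocyte covariate, Pparg, Cebpa and Lpl were -0.64, -0.39 and -0.725 for NaKtide on Western diet, and Pparg and Cebpa -1.19 and -0.93 for the interaction. The cause was not tested.

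Numbers of the 9 genes called were as follows. For NaKtide on Western diet in liver the main count of 1 became 3 by voom and 2 without library 1 of both groups; for the liver interaction 1 became 2 by DESeq2, voom and without those libraries. For Western diet in subcutaneous fat 0 became 1 by DESeq2, 2 by voom, 1 from the compared groups alone and 3 with the adipocyte covariate. That covariate fit called 17.6% of all genes. In visceral fat 0 became, by voom, without tract-rich libraries and with that covariate, 3, 6 and 3 for Western diet, 3, 7 and 4 for NaKtide on Western diet and 3, 6 and 5 for the interaction. For NaKtide on control diet it became 2 and 4 in the last pair. Shares of all genes called in that pair were 15.6% and 28.3%, 20.8% and 30%, 26.4% and 43.3%, and 11.8% and 13.2%, in the same order of comparisons. Visceral against subcutaneous fat gave 2 on control diet, 0 by voom and 0 without tract-rich libraries. On Western diet it gave 0, 2 by DESeq2, 6 by voom, 4 without tract-rich libraries (13.3% of all genes called) and 3 with the covariate (5.52%). The depot difference in diet effect gave 0, and 1 by voom. Liver against subcutaneous fat gave 2, and 1 without a filter.

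Replicate numbers did not pair the samples (mean correlation of same-numbered libraries -0.056 to 0.032). With the replicate block, liver NaKtide on Western diet gave 0 calls (Lpl 1.15, adjusted p = 0.0624, edgeR), and liver against either fat gave 1.

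With 1 library left out, calls ranged 2 to 3 for liver Western diet, 0 to 1 for NaKtide on Western diet, 1 to 2 for NaKtide on control diet and 1 to 2 for the interaction; 0 to 0 in subcutaneous fat; 0 to 0 in visceral fat, and 0 to 1 for its interaction; 1 to 5 between depots on control diet and 0 to 2 on Western diet; 0 to 0 for the depot difference; 1 to 2 and 2 to 2 for liver against subcutaneous and visceral fat.

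Counts over all genes moved by over 1.5 times in many settings: liver Western diet 1097 (656 without control livers 2 and 4, 1744 by voom), NaKtide on Western diet 622 (321 from compared groups, 3904 by voom), NaKtide on control diet 201 (62 with the block, 423 by DESeq2), interaction 649 (155 with the block, 3678 without the library 1 pair); subcutaneous Western diet 854 (1 with muscle covariate, 3717 by voom), NaKtide on Western diet 0 (638 by voom); visceral Western diet 4287 (1936 without filter, 6507 by voom), NaKtide on Western diet 2270 (985, 7392), NaKtide on control diet 1233 (655, 3571); depots on control diet 4842 (2 without tract-rich libraries) and on Western diet 370 (104 with the block, 7956 by voom). Leaving out 1 library moved them to 224 to 2281, 59 to 402 and 192 to 2738 for NaKtide on Western diet, NaKtide on control diet and the interaction in liver, 200 to 1413 for subcutaneous Western diet, 1570 to 5091, 1031 to 3770 and 628 to 3115 for the 3 visceral comparisons, and 1740 to 6694 and 101 to 1299 between depots on control and Western diet; the shares of all genes called move with them. Depth limits the low liver genes, above all Aqp7.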

Other observations

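Other genes of the 4 lists changed in visceral fat, in the fit of all 20 libraries, 7 of them rich in tract markers. On Western diet Acsl5, an acyl-CoA synthetase, averaged 119 CPM, against 62.8 CPM on control diet (0.92 ± 0.21, adjusted p = 0.00634, edgeR). Gpam, the first acyltransferase of triglyceride synthesis, had 134 ± 70.8 against 36.0 ± 22.7 CPM (1.90 ± 0.68, adjusted p = 0.0485, edgeR). Most of the Gpam list went the other way: 2 of 17 genes were called higher and 4 lower, with a median of -0.62, against -0.22 over all genes tested. Of 23 fatty acid uptake genes, 2 were higher and 2 lower. Over all genes 24.9% were called. With NaKtide on Western diet Acsl5 was lower, 72.8 against 119 CPM (-0.70 ± 0.21, adjusted p = 0.032), and with NaKtide on control diet it was higher, 106 against 62.8 CPM (0.75 ± 0.21, adjusted p = 0.0311). Its interaction was -1.46 ± 0.29 (adjusted p = 0.00153).

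In liver the interaction was called for 3 higher and 9 lower genes of the 4 lists, where 5% of all genes were called. The higher were Slc27a1 (1.31 ± 0.38, adjusted p = 0.0488), Slc2a1 (1.18 ± 0.34, adjusted p = 0.0488) and Gpat4 (0.81 ± 0.23, adjusted p = 0.0436, edgeR). Among the lower were Gpam (-4.75 ± 0.84, adjusted p = 0.00354), Lpin1 (-3.32 ± 0.60, adjusted p = 0.00406), Acsl3 (-2.03 ± 0.41, adjusted p = 0.00913) and Slc2a2 (-1.77 ± 0.37, adjusted p = 0.0125, edgeR). Gpam averaged 26.9 ± 13.9 CPM with Western diet and NaKtide, 69.6 ± 24.8 CPM with Western diet, 68.0 ± 79.6 CPM with control diet and NaKtide and 6.46 ± 2.68 CPM with control diet (SD, n = 5 each).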
